A study of Mus musculus with 12 samples.

Results

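Amh and Amhr2, the genes of anti-Müllerian hormone and of its type 2 receptor, were followed in the cells of fetal mouse gonads. They were taken by symbol and are 2 of the 32285 genes counted. Gonads were dissected from the mesonephros at E12, per the study's sample list, and dissociated with trypsin. Wild-type (WT) embryos were compared with -KTS KO embryos, homozygous for an allele of Wt1 that makes no -KTS isoform, and with +KTS KO embryos, homozygous for an allele that makes no +KTS isoform. WT1 is a zinc finger protein, and its isoforms differ by the amino acids KTS between the last zinc fingers. Both alleles are carried in the germline, and the +KTS KO is a mouse model of Frasier syndrome. The paper reports more -KTS transcript in +KTS KO gonads than in controls. Absence of +KTS and excess of -KTS thus cannot be told apart here, and loss of +KTS below names the genotype. All embryos were on a mixed B6CBAF1/JRj background. XX and XY gonads of each genotype gave 6 groups with 2 single-cell RNA sequencing libraries each, 12 in all. Per the study's methods, XX -KTS KO replicate 2 and both XY -KTS KO libraries pooled several embryos, so their spread averages over embryos. The embryos of the mutant groups differed in tail somite stage, also within a group, and the part of stage in the results was not tested.

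AMH is a hormone of the TGF-β family that Sertoli cells, the supporting cells of the testis, secrete soon after they differentiate. It acts on the mesenchyme around the Müllerian ducts, which then regress in males. AMHR2 is the receptor that binds AMH, and it signals through type 1 receptors shared with the bone morphogenetic proteins and through SMAD proteins. In females Amh stays silent in the fetal ovary and is switched on after birth in granulosa cells of growing follicles. Amhr2 is also made by the somatic cells of the gonad itself. SOX9, NR5A1 (SF1), GATA4 and WT1 are known regulators of Amh, and WT1 is known to act on the Amhr2 promoter.

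Each library held 108111924 to 147968666 UMIs (unique molecular identifiers, 1 for each captured RNA molecule). After filters on cells and on doublets, 77545 cells remained, of which 66653 were taken as gonadal somatic cells (4120 to 7758 a library, with a median of 9848.5 to 18845.5 UMIs a cell). They include 89 cells of an unnamed cluster led by the muscle genes Actc1 and Myog, 88 of them from XY +KTS KO, which held 0 Amh UMIs and 1 Amhr2 UMI. Levels of a library are UMIs on a counts-per-million scale (CPM), summed over these cells and scaled by TMM factors. Levels of a class of cells are also in CPM, there relative to all UMIs of the class in that library and without TMM factors. As a check of sex, Xist ranged from 525 to 721 CPM over the 6 XX libraries and did not exceed 0.165 CPM in any of the 6 XY ones. Ddx3y, on the Y chromosome, had 0 UMIs in somatic cells of XX and 44.0 to 62.5 CPM in those of XY. Counts at the 3' end of Wt1 cannot tell its isoforms apart, so they check no genotype label, and Wt1 lay between 171 and 305 CPM in the 12 libraries. Any pair of libraries shared at most 46 cell barcodes.

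Cells were clustered without Amh and Amhr2 among the genes used, so that neither gene placed a cell. Of 35 clusters, cluster 12 was Sertoli-like (Sox9, Dhh, Aard, Ptgds and Cst9 among its leading genes), and 3045 of its 3058 cells came from XY WT. Cyp11a1, a steroidogenic enzyme, and Inha, the inhibin α subunit, were the leading genes of cluster 0 and came behind Ctrb1 among the first 4 of cluster 24. Of the marker lists, the pre-supporting list fitted them best, with 4 of its 5 markers above their level in the other cells. They were left unnamed because Cyp11a1, a fetal Leydig marker, and no pre-supporting marker was among their 10 leading genes, and they are called Cyp11a1/Inha-led. The paper names 2 clusters of XX and XY +KTS KO gonads as pre-granulosa cells, apart from those of XX controls. How these match the Cyp11a1/Inha-led cells was not tested, so that name does not set them apart from the paper's pre-granulosa cells. XY +KTS KO replicate 1 stood apart from replicate 2. It held 3102 of the 3180 cells of the pre-granulosa-like cluster 10, where Fos, Fosb, Junb and Btg2 were among the leading genes, but 57 Cyp11a1/Inha-led cells, against 13 pre-granulosa-like and 2663 Cyp11a1/Inha-led cells in replicate 2. The interstitial-like cluster 17, led by Btg2, Egr1 and Fos, also had 1725 of its 1837 cells from XY +KTS KO replicate 1, against 15 from replicate 2. Such genes thus led clusters of more than 1 class in that library. The part of immediate early genes in the split of the replicates was not tested, and the class values of the 2 libraries are given apart.

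Amh spans chr10:80805243-80807648 on the plus strand in GRCm38 (GENCODE M21) with 5 exons, between Sf3a2, which ends 318 bases before it, and Jsrp1, which ends 847 bases behind it on the minus strand. In XY WT it lay at 201 and 69.6 CPM in replicates 1 and 2. In XX WT it lay at 0.278 and 0.388 CPM, which are 19 and 36 UMIs in the whole somatic sum. XY WT was thus high in both libraries, though they differed between them, and XX WT was near 0. The -KTS KO libraries were as low as XX WT or lower, namely 0.272 and 0.269 CPM for XX and 0.184 and 0.182 CPM for XY. In XX +KTS KO, Amh lay at 19.8 and 7.19 CPM (1844 and 614 UMIs). XY +KTS KO held 26.6 and 11.7 CPM. The 4 +KTS KO libraries overlapped across the sexes and lay between the 2 XY WT libraries and all 6 libraries of XX WT and -KTS KO, overlapping with neither.

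The levels of the 6 groups entered a single quasi-likelihood model in edgeR, with Benjamini-Hochberg adjustment over 17723 genes. The p-values measure the spread between libraries. In XY WT against XX WT, Amh was 398-fold higher (log2 fold change 8.64, SE 0.80, adjusted p = 0.000273, edgeR), where 13.7% of genes were called. Without -KTS, Amh fell by 9.52 on the log2 scale in XY (SE 0.85, adjusted p = 9.53e-05, edgeR), a 733-fold lower level, where 23.5% of genes were called. In XX -KTS KO against XX WT the log2 difference was -0.32 (SE 0.89, adjusted p = 0.852, edgeR), in a comparison that called 16.5% of genes. In XX +KTS KO, Amh was 39.7-fold higher than in XX WT (log2 fold change 5.31, SE 0.72, adjusted p = 0.00492, edgeR), where 4.98% of genes were called. In XY +KTS KO, Amh was 7.06-fold lower than in XY WT (log2 fold change -2.82, SE 0.58, adjusted p = 0.0143, edgeR), where 12.7% of genes were called.

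These calls leaned on single libraries to different extents. Without XX WT replicate 1, the rise in XX +KTS KO was 5.11 on the log2 scale with an adjusted p of 0.0540 (edgeR), and it was 4.41 without XX +KTS KO replicate 1 and 5.88 without replicate 2, both past the threshold. Without XY WT replicate 1, the library with most Amh, the fall in XY +KTS KO was -1.87 (adjusted p = 0.0927, edgeR) and the fall in XY -KTS KO -8.56 (adjusted p = 0.000184, edgeR). Without XY WT replicate 2 the latter was -10.08 and the former -3.40. The difference of XY WT from XX WT was 7.68 without XY WT replicate 1 and 9.21 without replicate 2, both past the threshold. The fall in XY +KTS KO was -3.51 (adjusted p = 0.0198, edgeR) without XY +KTS KO replicate 1.

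A difference between the sexes in Amh passed the test in WT and in neither mutant. XY -KTS KO minus XX -KTS KO gave -0.56 on the log2 scale (SE 0.99, adjusted p = 0.982, edgeR), where 0.0339% of genes were called. XY +KTS KO minus XX +KTS KO gave 0.51 (SE 0.55, adjusted p = 0.996, edgeR), also with 0.0339% of genes called, and the sign turned to -0.19 without XY +KTS KO replicate 1 and to -0.08 without XX +KTS KO replicate 2. The difference between the sexes in the effect of each mutation was tested as an interaction, which equals the sex difference in the mutant less that in WT (8.64). Amh in XX WT was near 0 (0.333 CPM), so it could hardly fall in XX, and the -KTS interaction mainly restates the sex difference of WT. The effect of -KTS loss on Amh gave XY minus XX = -9.20 (log2, SE 1.30, adjusted p = 0.00896, edgeR), where 3.04% of genes were called. It missed the threshold without either XX -KTS KO library (adjusted p = 0.0645 and 0.0509, edgeR). For +KTS loss the interaction was -8.13 (SE 0.93, adjusted p = 0.00281, edgeR), where 3.96% of genes were called. Leaving out 1 library at a time, it ranged from -8.83 (without XY +KTS KO replicate 1) to -7.18 (without XY WT replicate 1) and passed the threshold each time.

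**Figure D1:**
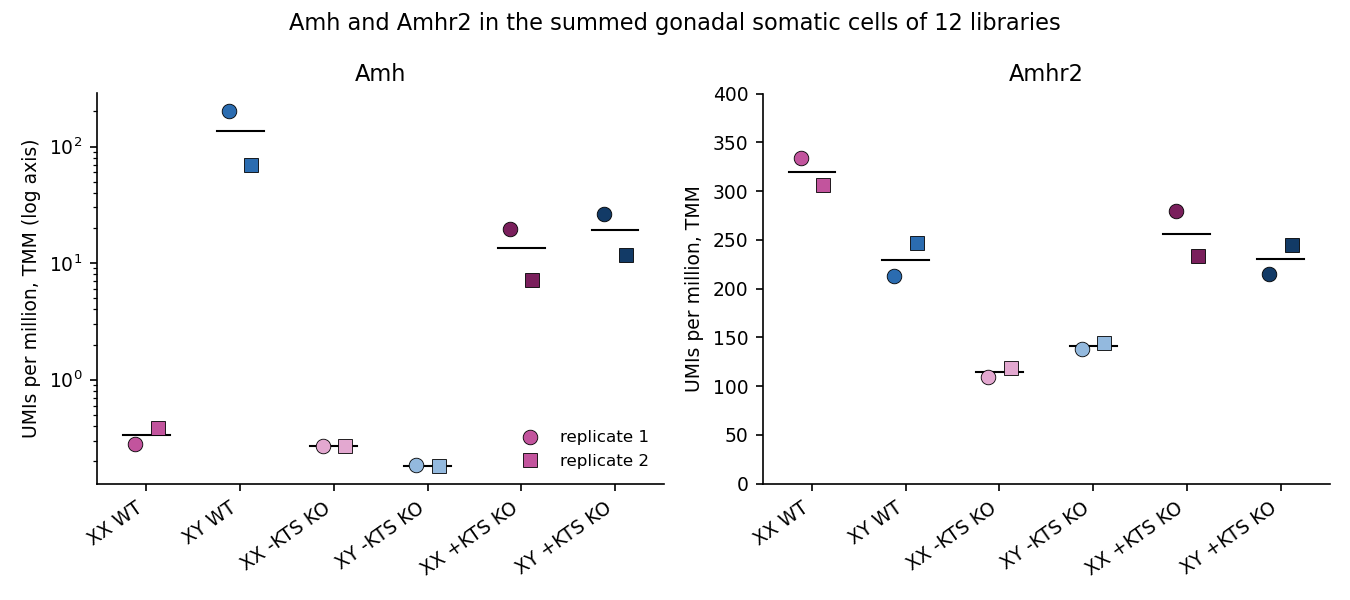
Amh (left, log axis) and Amhr2 (right, axis from 0) in the summed gonadal somatic cells, in CPM with TMM scaling; each point is 1 library and each line the mean of the 2 libraries of a group. Amh is highest in XY WT (201 and 69.6), intermediate in the 4 +KTS KO libraries (7.19 to 26.6) and below 0.4 in the other 6, while Amhr2 is lowest in the 4 -KTS KO libraries (110 to 144).

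In XY WT, Amh lay mostly in Sertoli-like cells. The 1799 and 1246 Sertoli-like cells of replicates 1 and 2 held 97.2% and 93.5% of the Amh UMIs in all kept cells of their library. Within them Amh lay at 676 and 230 CPM of the class, and 86.2% and 67.9% of the cells had at least 1 UMI. Pre-supporting-like cells of the same libraries, mostly of cluster 14, held far less, 32.1 and 13.1 CPM, with a UMI in 12.4% and 8.61% of cells. Free RNA in the droplets gives UMIs in cells that do not express a gene. Endothelial-like cells, which should lack Amh, had a UMI in 0.726% of 413 cells and 2.58% of 271 cells of these libraries, at median depths of 13643 and 15557 UMIs. They also held Amhr2 at 30.9 and 38.8 CPM, and how far they measure free RNA alone was not tested. Erythrocyte-like cells, which should also lack Amh, had it in 4.05% of 173 cells of both libraries together. Their Amh ranged from 1.54 to 20.3 CPM, the upper value above the 13.1 CPM of pre-supporting-like cells in replicate 2. The shares in Sertoli-like and pre-supporting-like cells lay above those of both classes, at median depths of 10477 and 13436 UMIs for Sertoli-like cells. Interstitial-like cells, at 1.73% and 1.09%, did not stand clear of that background.

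The XY WT replicates differed in how much Amh a Sertoli-like cell held. The median was 5 UMIs a cell in replicate 1 (quartiles 1 and 11) and 1 UMI in replicate 2 (quartiles 0 and 4), although cells of replicate 2 were deeper. In CPM, replicate 1 held 2.94 times as much Amh as replicate 2. Ptgds, the prostaglandin D synthase of Sertoli cells, differed the same way (1101 against 421 CPM, 2.62 times), and so did Dhh, the Hedgehog ligand of Sertoli cells (245 against 143, 1.72 times). Sox9 was the other way around, at 466 against 629 CPM, and Cst9 differed little (1236 against 1276). Amhr2 was alike, at 212 and 213 CPM. With 1 library each, no test applies.

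Within the Sertoli-like cells of XY WT, Amhr2 ranged from 189 to 222 CPM in replicate 1 and from 202 to 245 CPM in replicate 2 over 4 bins of Amh UMIs. In replicate 1, Amhr2 lay at 189 CPM in the 248 cells with no Amh UMI and at 219 in the 532 cells with 10 or more, at median depths of 9118.5 and 11902 UMIs. In replicate 2 the same values were 207 in 400 cells and 218 in 119 cells, at 12278 and 16620 UMIs.

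In XX +KTS KO there were 0 Sertoli-like cells, and Amh was found in other cells. The Cyp11a1/Inha-led cells held 90.2% and 78.6% of the Amh UMIs in all kept cells of replicates 1 and 2. In replicate 1, 698 of 3483 such cells had an Amh UMI (95% exact Clopper-Pearson interval of the share 18.7% to 21.4%). In replicate 2 it was 15.9% of 1566 (14.1% to 17.8%). Their level was 40.4 and 15.8 CPM. Pre-supporting-like cells followed, with a UMI in 15.9% of 315 and 13.5% of 111 cells and a level of 21.3 and 20.02 CPM. Both classes stood clear of the endothelial-like cells, which had 0 of 235 and 0 of 104 cells with Amh (true shares up to 1.28% and 2.88% remain possible at these numbers). Interstitial-like cells, at 1.15% and 1.68%, lay below those limits. Coelomic epithelium-like cells, at 1.12% and 2.95%, lay below the limit in replicate 1 and just above it in replicate 2, where the interval of the share ran from 1.81% to 4.53%. These intervals and limits cover counting error only.

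The XX +KTS KO cells with Amh were checked for XY RNA and shared barcodes. Ddx3y had 0 UMIs in both libraries. Of the 813 and 326 kept cells with Amh in the 2 libraries, 5 and 1 carried a barcode that an XY WT library also held, and 2 and 1 of these barcodes had Amh in XY WT. Depth was close between cells with and without Amh. Among the Cyp11a1/Inha-led cells, the medians were 12198 and 11461 UMIs in replicate 1 and 20170 and 19075 in replicate 2.

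In the Cyp11a1/Inha-led cells with an Amh UMI, Sertoli markers were low. The summed level of 6 Sertoli markers (Sox9, Dhh, Aard, Ptgds, Mro and Cst9) was 269 CPM in cells with Amh and 142 in cells without in XX +KTS KO replicate 1, and 134 and 86.1 in replicate 2. Of the 6 markers, 6 were higher in the Amh cells of replicate 1 and 4 in those of replicate 2, and none was at 0. Sox9, which drives Sertoli cell fate, lay at 3.44 and 3.25 CPM in cells with and without Amh in replicate 1, and at 3.39 and 3.42 in replicate 2. In Sertoli-like cells of XY WT it lay at 466 and 629. Inha was higher in cells with Amh (586 against 376 in replicate 1, 633 against 454 in replicate 2), as was Cyp11a1 (374 against 271, and 449 against 369). Of the 5 fetal Leydig markers, Cyp11a1 among them, 4 were higher in the Amh cells of replicate 1 and 3 in those of replicate 2. Foxl2, the transcription factor of pre-granulosa cells, was also higher in cells with Amh, at 39.1 against 25.2 and 23.0 against 12.1 CPM. Bmp2, a growth factor of pre-granulosa cells, went the other way, at 4.55 against 11.4 and 4.52 against 16.0. Of the 5 pre-granulosa markers, 3 were higher in the cells with Amh in both replicates. Their sums were 323 against 312 CPM in replicate 1 and 311 against 344 in replicate 2, so the list went no single way. Wnt6 was found in 99.9% and 99.6% of the cells with Amh and Runx1, a marker of the supporting lineage, in 87.7% and 89.6%. In the cells without Amh, Wnt6 was found in 99.1% and 99.8% and Runx1 in 82.3% and 89.3%. By level, 5 of 5 pre-supporting markers were higher in the cells with Amh in both libraries. They summed to 2444 against 2293 CPM in replicate 1 and to 2069 against 1914 in replicate 2. Inha was picked after its values were seen. All these are descriptions within 4 groups of cells, and the cells of a library are not replicates.

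In XY +KTS KO, the Amh cells of the replicates lay in different clusters. Replicate 2 resembled XX +KTS KO, with 85.9% of its Amh UMIs in Cyp11a1/Inha-led cells, of which 17.1% of 2663 had a UMI at 25.3 CPM. In replicate 1, 1986 of its 2186 somatic Amh UMIs were in pre-granulosa-like cells, of which 22.6% of 3106 had a UMI at 57.5 CPM. Sertoli markers summed to 817 CPM in those pre-granulosa-like cells that had Amh and 260 in those without, with 6 of 6 markers higher, while the cells with Amh were also deeper (median 12857 against 8412 UMIs). In replicate 2 the Cyp11a1/Inha-led cells gave 200 and 120, with 4 of 6 markers higher. Endothelial-like cells of the 2 libraries had 1 Amh UMI each, in 114 and 192 cells.

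A few Sertoli-like cells were present in XY +KTS KO replicate 1. They numbered 5, held 99 of its Amh UMIs, and 1 of them held 81 UMIs, more than any XY WT cell (at most 68). None of the 5 barcodes occurred in another library. Replicate 2 had 0 Sertoli-like cells, and its highest cell held 16 Amh UMIs. XY -KTS KO had 3 and 5 Sertoli-like cells in replicates 1 and 2, which held 0 and 1 Amh UMIs.

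The cells with Amh held fewer UMIs each in +KTS KO than in XY WT. In XY WT 2397 of the 2707 cells with Amh were Sertoli-like, a class nearly absent from +KTS KO, so the groups compare different classes. Of these 2397 cells, 1648 held 3 UMIs or more, against 44 of the 212 pre-supporting-like XY WT cells with Amh. In XY WT, 1202 of the 1726 somatic cells with Amh held 3 UMIs or more and 534 held 10 or more in replicate 1, against 493 of 981 and 121 in replicate 2. In XX +KTS KO, 195 of 809 cells held 3 or more and 20 held 10 or more in replicate 1, against 56 of 324 and 6 in replicate 2. In XY +KTS KO, 227 of 766 cells held 3 or more and 41 held 10 or more in replicate 1, against 118 of 563 and 10 in replicate 2. The highest XX +KTS KO cell held 24 UMIs in replicate 1 and 13 in replicate 2. In XX WT, 49 of 52 cells held 1 UMI and 3 held 2, and in both -KTS KO groups each of the 37 and 28 cells held 1.

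**Figure D2:**
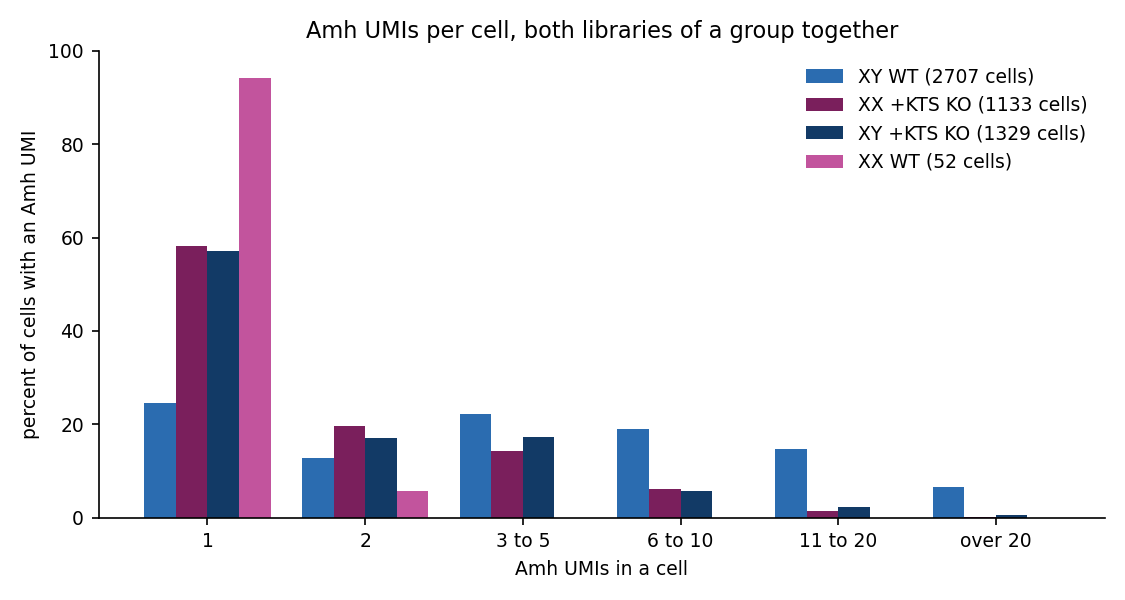
Amh UMIs per cell among the gonadal somatic cells with at least 1 Amh UMI, as the percent of those cells in each bin, both libraries of a group together. XY WT spreads over all bins with 180 cells over 20 UMIs, the +KTS KO groups have most of their cells at 1 UMI with a tail to 10 and more, and XX WT has none above 2.

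Amh was sparse in XX WT and in -KTS KO. In XX WT, pre-granulosa-like cells had a UMI in 0.417% of 2160 and 0.636% of 2202 cells (0.371 and 0.436 CPM), at median depths of 12047 and 14403 UMIs. Germ-like cells, deeper at 29838 and 34333 UMIs, had 0 of 926, which allows up to 0.324%, and 0.211% of 473 (0 and 0.0584 CPM). The pre-granulosa-like shares lay above these values, but their exact binomial intervals, 0.191% to 0.789% and 0.348% to 1.06%, reached below that limit in replicate 1 and below the upper bound of the germ-like share, 1.17%, in replicate 2 (counting error only). Endothelial-like cells had 0 of 162 and 0 of 263, too few to set a limit under 1.14%. In -KTS KO no class of over 50 cells had Amh in more than 1.01% of its cells, a share that came from 1 of 99 endothelial-like cells. Germ-like cells of -KTS KO had a UMI in 0.741% of 270 and 0.0744% of 1344 cells in XX, and in 0 of 481 (up to 0.624%) and 0.233% of 429 in XY. The cluster led by Wfdc13 and Wfdc10 held 5 and 2 Amh UMIs in XX and 1 and 2 in XY, and interstitial-like cells held 11 and 3 in XX and 7 and 5 in XY.

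Amh was found more often in XY WT cells with Sox9 than in those without, which was not seen in XX +KTS KO cells. Each cell was thinned to 5000 UMIs for this, and shallower cells were left out. The bins pool all somatic classes, so in XY WT they also part Sertoli-like from other cells. XX +KTS KO had no Sertoli-like cells, and its Sox9 lay at 4.77 and 6.62 CPM, next to 3.91 and 7.97 in XX WT. Few of its cells could thus show such a rise. In XY WT replicate 1, 7.41% of the cells with no Sox9 UMI had Amh, against 347 of the 826 with 1 Sox9 UMI and 62.3% of those with 2 to 3. Replicate 2 gave 3.81%, 19.4% and 35.7%. At 4 or more Sox9 UMIs the shares were 56.8% and 33.8%, below those at 2 to 3. In XX +KTS KO, 439 of the 445 thinned cells with Amh of replicate 1 and 125 of the 126 of replicate 2 had no Sox9 UMI. Of XX +KTS KO cells with 1 Sox9 UMI, 4.14% of 145 and 1.04% of 96 had Amh, next to 6.10% and 3.15% of the cells with none. XY +KTS KO replicate 1 had Amh in 6.10% of cells with no Sox9 UMI and in 41.9% of the 74 cells with 4 or more, whereas replicate 2 had 4.38% and only 3 cells with 4 or more.

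**Figure D3:**
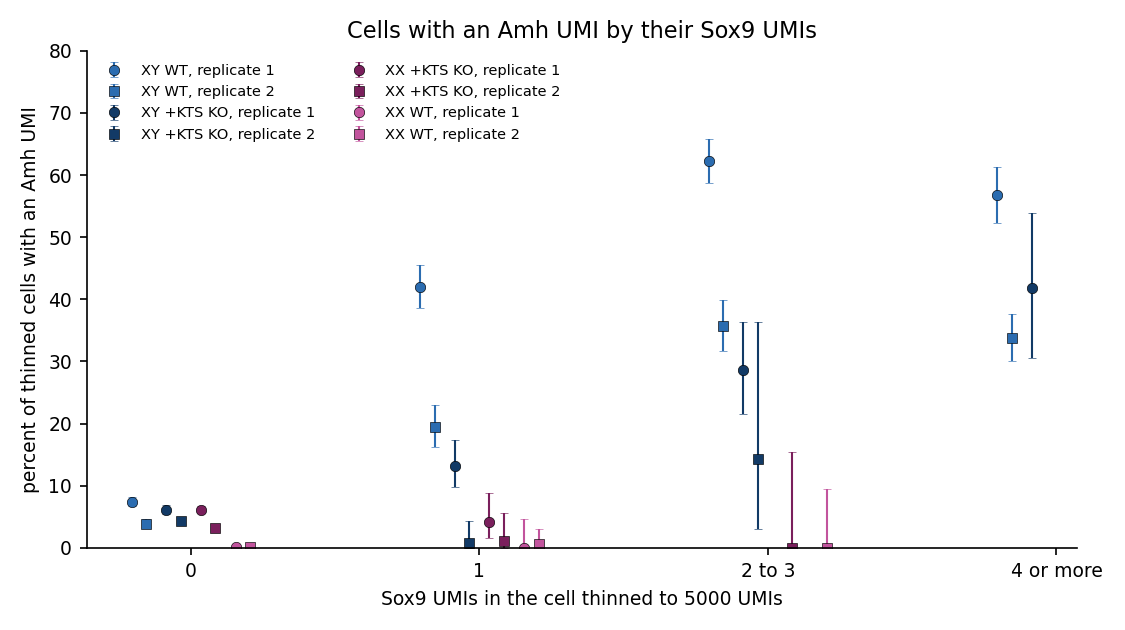
Percent of gonadal somatic cells with an Amh UMI (y axis) by the number of Sox9 UMIs in the same cell (x axis), cells thinned to 5000 UMIs, with 95% exact binomial intervals; each point is 1 library, and bins under 20 cells are left out. XY WT rises from 7.41% and 3.81% without Sox9 to 62.3% and 35.7% at 2 to 3 Sox9 UMIs, XX +KTS KO stays between 0% and 6.10%, and XX WT stays under 1%.

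Amhr2 spans chr15:102445367-102454633 on the plus strand (GRCm38, GENCODE M21) with 11 exons in the gene's transcript set. The 250 bases before its start are shown since WT1 is a known regulator of this promoter and Amhr2 fell without -KTS. They are RefSeq's sequence for GRCm38.p6, chr15:102445117-102445366, plus strand, 5′ to 3′. Capitals mark the letters AAGGTCA, letters of an NR5A1 motif, and matches to GTGGGNG, letters of a WT1 motif, which lie on the minus strand and so read CNCCCAC here.
Amhr2 promoter: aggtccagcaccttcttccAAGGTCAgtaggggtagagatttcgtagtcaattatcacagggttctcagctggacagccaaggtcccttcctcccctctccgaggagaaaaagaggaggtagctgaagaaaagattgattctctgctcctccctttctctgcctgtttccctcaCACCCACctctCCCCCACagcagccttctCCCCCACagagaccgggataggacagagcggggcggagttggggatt
AAGGTCA begins 231 bases before the start, and the 3 GTGGGNG matches begin 76, 65 and 47 bases before it, with no overlap among them. Searched on both strands, AAGGTCA was in 4.08% and GTGGGNG in 28.1% of 32851 promoters of this length. AGATAA, letters of a GATA motif found in 9.99% of promoters, and ACAAT, letters of a SOX motif found in 27.7%, had 0 matches here. A match is a description of the letters and not a site of binding.

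Amhr2 was found in all groups and was lowest without -KTS. XX WT held 334 and 306 CPM in replicates 1 and 2. XY WT held 213 and 247 CPM. The XX -KTS KO libraries had 110 and 119 CPM and the XY -KTS KO libraries 138 and 144. All 4 -KTS KO libraries lay below the other 8. The libraries of XX +KTS KO had 279 and 233 CPM and those of XY +KTS KO 215 and 245. All 4 lay below XX WT, and 3 of them lay within the range of XY WT, with XX +KTS KO replicate 1 above it.

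In XX, loss of -KTS lowered Amhr2 by 2.80-fold (log2 fold change -1.48, SE 0.14, adjusted p = 0.000323, edgeR). In XY it was 1.63-fold lower (log2 fold change -0.70, SE 0.14, adjusted p = 0.00633, edgeR). The XY call was lost when all kept cells were summed (-0.51, adjusted p = 0.0661, edgeR) and without XY WT replicate 2 (-0.59, adjusted p = 0.0605, edgeR). The difference between the sexes in this effect was 0.78 (log2, SE 0.20, adjusted p = 0.0684, edgeR) and was called by DESeq2 (0.76, adjusted p = 0.0102). In +KTS KO the differences did not pass, at -0.32 in XX (SE 0.14, adjusted p = 0.261, edgeR) and 0.00065 in XY (SE 0.14, adjusted p = 0.998, edgeR), and the latter changed sign with the scaling. XY WT was lower than XX WT by 0.48 (log2 fold change -0.48, SE 0.14), just short of the threshold (adjusted p = 0.0505, edgeR; 0.0227 with DESeq2). Between the sexes the mutants gave 0.30 in -KTS KO (SE 0.14, adjusted p = 0.971, edgeR) and -0.16 in +KTS KO (SE 0.14, adjusted p = 0.996, edgeR). The interaction of +KTS loss with sex was 0.32 (SE 0.20, adjusted p = 0.409, edgeR). In summed cells, fewer cells of a class and less RNA per cell cannot be told apart, so the classes follow.

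Among the named classes of WT gonads, Amhr2 was highest in pre-granulosa-like and pre-supporting-like cells. The unnamed cluster 25, led by Plac8, Egfl6, Pdgfrl and Pax8, held 425 CPM over all its 646 cells, of which 588 came from XX WT. Pre-granulosa-like cells of XX WT held 414 and 406 CPM of the class, and pre-supporting-like cells 435 and 406. In XY WT, pre-supporting-like cells held 396 and 382 CPM and Sertoli-like cells 212 and 213. The Sertoli-like cells of both libraries thus lay below the pre-supporting-like cells of both, and these differ by more than the libraries do. The pre-supporting-like cells were mostly of cluster 19 in XX WT (845 of 1295) and of cluster 14 in XY WT (1933 of 2102). Coelomic epithelium-like cells held 290 and 266 CPM in XX WT, and 204 (58 cells) and 277 in XY WT. Interstitial-like cells held 203 and 178 in XX WT and 159 and 186 in XY WT. Germ-like cells (1.89 and 2.80 in XX WT, 1.68 and 6.68 in XY WT) and endothelial-like cells of XX WT (3.31 and 2.56) held little, whereas endothelial-like cells of XY WT held 30.9 and 38.8.

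**Figure D4:**
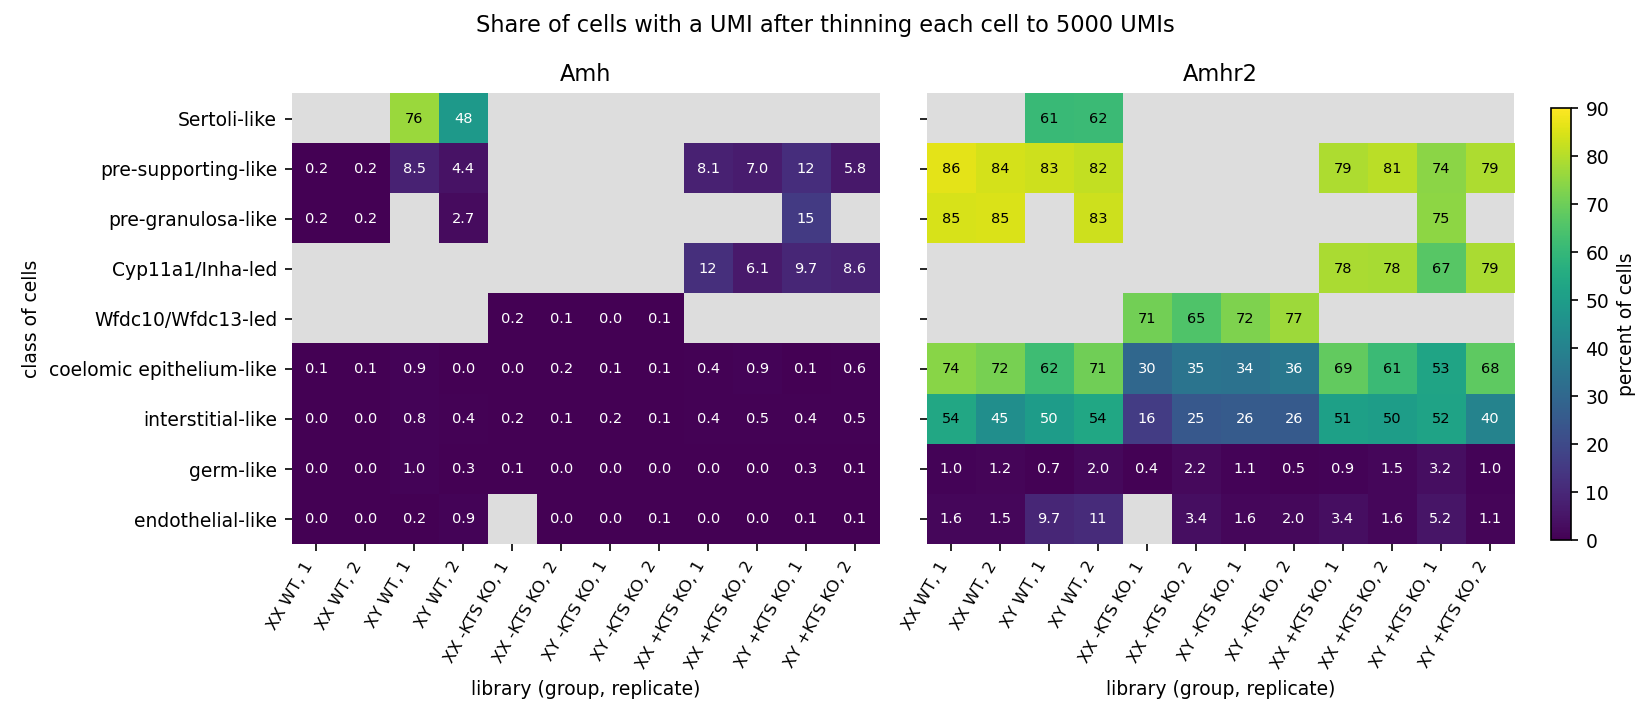
Percent of cells with at least 1 UMI of Amh (left) and Amhr2 (right) after thinning to 5000 UMIs, for 9 classes of cells (rows) in the 12 libraries (columns, group and replicate); grey marks fewer than 50 cells. Amh reaches 76.4% and 48.2% in XY WT Sertoli-like cells and 5.80% to 15.4% in the pre-supporting-like, pre-granulosa-like and Cyp11a1/Inha-led cells of +KTS KO, while Amhr2 falls in the coelomic epithelium-like and interstitial-like cells of -KTS KO.

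Without -KTS, Amhr2 was lower within the coelomic epithelium-like and interstitial-like classes. Coelomic epithelium-like cells without -KTS held 83.6 and 101 CPM (XX) and 105 and 113 (XY), below the 4 WT libraries of the class. Interstitial-like cells without -KTS held 50.1 and 73.3 (XX) and 81.8 and 81.2 (XY), again below all 4 WT libraries. The cells of these classes came from other clusters in -KTS KO (cluster 7 and cluster 1) than in WT, so the values compare different clusters of a class. The Wfdc10/Wfdc13-led cluster, found almost only in -KTS KO, held Amhr2 at 270 and 234 CPM in XX and 293 and 332 in XY. WT had 9 cells of this cluster, too few for a level, and WT pre-supporting-like cells held more, 382 to 435 CPM. Matrix-rich mesenchyme-like cells of -KTS KO held less, 32.8 to 58.5 in XX and 38.5 to 40.8 in XY.

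In +KTS KO the Cyp11a1/Inha-led cells held Amhr2 at 337 and 332 CPM in XX and at 248 (57 cells) and 332 in XY. Pre-supporting-like cells held 356 and 367 in XX and 307 and 340 in XY. The pre-granulosa-like cells of XY +KTS KO replicate 1 held 296. All of these lay below the pre-granulosa-like and pre-supporting-like cells of XX WT (406 to 435).

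Most cells with Amh also had Amhr2 in WT and +KTS KO of both sexes. Among the few cells with Amh in -KTS KO, 10 of 22 and 8 of 15 had Amhr2 in XX and 6 of 13 and 9 of 15 in XY, next to 48.7%, 52.0%, 52.6% and 57.7% of the cells without Amh. In XX +KTS KO, 95.6% of 809 and 98.5% of 324 somatic cells with Amh had an Amhr2 UMI, against 83.9% and 80.3% of the cells without Amh. The Cyp11a1/Inha-led class as a whole had Amhr2 in 94.6% and 97.8% of its cells. In XY WT, 85.1% of 1726 and 88.8% of 981 cells with Amh had Amhr2, against 72.7% and 83.2% of the others, and cells with Amh were deeper (10632 against 9630 and 13910 against 11929 median UMIs). As a level, Amhr2 was 222 CPM in cells with Amh and 189 in the others in replicate 1, and the other way round in replicate 2, 232 and 257. These levels were 349 and 260 CPM in replicate 1 and 331 and 230 in replicate 2 of XX +KTS KO. In XY +KTS KO, 92.4% of 766 and 97.7% of 563 cells with Amh had Amhr2, against 75.1% and 77.1% of the others. The levels there were 293 and 224 CPM in replicate 1 and 320 and 231 in replicate 2. Of the few XX WT cells with Amh, 15 of 18 and 34 of 34 had Amhr2, next to 88.5% and 87.3% of the others.

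Shares of cells were compared between genotypes with both sexes pooled, after thinning to 5000 UMIs. Amhr2 was found in 29.6% to 38.6% of cells in the 4 -KTS KO libraries and in 56.9% to 75.02% in the 4 WT libraries, a difference of -32.0 percentage points (two-sided exact permutation test, p = 0.0286, adjusted p = 0.171 over 6 tests). No split of 4 against 4 can go below that p. The share for Amh was 0.115% ± 0.028 (SD, n = 4) in -KTS KO and 9.02% ± 10.7 (SD, n = 4) in WT (exact permutation p = 0.0571, adjusted p = 0.171), and the -KTS KO (0.0869% to 0.149%) overlapped XX WT (0.137% and 0.208%). For +KTS KO against WT the differences were -3.76 points for Amh (exact permutation p = 0.514) and -3.96 for Amhr2 (p = 0.400). Amh was found in 6.19% and 2.94% of XX +KTS KO cells and in 7.81% and 4.07% of XY +KTS KO cells. In XY WT it was found in 21.8% and 13.9% of cells. The share in +KTS KO was thus above WT in XX and below WT in XY. The pooled difference for Amh joins these opposite directions, so it cannot show whether the share changed in either sex. The 6 XY and 6 XX libraries differed by 6.34 points for Amh (exact permutation p = 0.119) and -3.89 for Amhr2 (p = 0.643).

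The other genes of the pathway moved in part. The type 1 receptors and SMAD proteins of AMH signalling were 9 genes, all tested. In XX -KTS KO 2 of 9 rose and 0 fell (16.5% of all genes called), in XY -KTS KO 2 rose and 2 fell (23.5%), in XX +KTS KO 1 rose (4.98%), and in XY +KTS KO 1 rose and 1 fell (12.7%). The lists below are read against the same shares. The 9 genes had medians of 0.22, 0.24, -0.0018 and 0.24 (log2) beside 0.0089, 0.015, -0.00097 and 0.048 over all genes. Smad9, a receptor-activated SMAD, rose in -KTS KO by 2.27 in XX and 4.55 in XY (log2), with Smad6, an inhibitory SMAD, at 0.90 in XX. In XY -KTS KO Acvr1, a type 1 receptor, fell by 0.84 and Smad7 by 0.66, and Smad6 rose by 1.16. Acvr1 was higher in XY WT than in XX WT (1.48) and fell by 0.95 in XY +KTS KO. Bmpr1b, another type 1 receptor, was lower in XY WT than in XX WT (-2.58) and rose by 2.55 in XY +KTS KO. Smad7 rose by 0.76 in XX +KTS KO. Adjusted p-values of these calls ran from 0.00171 to 0.0427 (edgeR).

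Of 4 other type 2 receptors of the family (Acvr2a, Acvr2b, Bmpr2 and Tgfbr2), Acvr2b rose by 0.63 in XX -KTS KO (adjusted p = 0.0153, edgeR) and none passed in the other comparisons named here. Of 4 genes of precursor cleavage and receptor binding, Pcsk5, a convertase, rose in XX, by 1.70 without -KTS and by 0.99 without +KTS, and was higher in XY WT than in XX WT (1.63). Pcsk6, a related convertase, fell by 1.40 in XY -KTS KO. Fkbp1a, a protein that binds type 1 receptors, was higher in XY WT (0.89) and fell by 0.98 in XY +KTS KO.

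Of 7 transcription factors known to act on Amh, Sox9 and Sox8 were higher in XY WT than in XX WT (5.11 and 4.31, log2). In XY -KTS KO, where 23.5% of all genes were called, 4 of 7 fell: Sox8 by 4.81, Sox9 by 3.66, Nr5a1 by 1.76 and Nr0b1 by 1.76. Nr0b1 and Nr5a1 also fell in XX -KTS KO, by 3.27 and 0.89. These values are sums over all somatic cells, and the pre-granulosa-like cluster 3 had 4346 cells in XX WT and 4 in XX -KTS KO. Within pre-supporting cells, the paper reports Nr0b1 as raised in XX -KTS KO, a comparison that the sums do not address. In XY +KTS KO, Sox9 fell by 3.09, Dmrt1 by 2.39 and Sox8 by 2.04. In XX +KTS KO, where Amh rose, Sox8 rose by 1.51 (adjusted p = 0.0444, edgeR) and Nr5a1 by 0.97 (adjusted p = 0.0427, edgeR). Sox9 gave -0.07 there (SE 0.68, adjusted p = 0.980, edgeR), Gata4 0.05 (adjusted p = 0.944) and Wt1 -0.20 (adjusted p = 0.625). Nr0b1 at 0.79 (adjusted p = 0.171, edgeR) and Dmrt1 at -2.12 (adjusted p = 0.105, edgeR) did not pass either. The medians of the list without -KTS were -0.89 (XX) and -1.76 (XY), and without +KTS 0.05 (XX) and -0.24 (XY).

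Of 6 genes that are known to respond to AMH in the mesenchyme of the Müllerian duct, Wif1, a secreted WNT inhibitor, fell in all 4 mutant groups, by 2.28 in XX and 2.81 in XY -KTS KO and by 2.38 in XX and 3.17 in XY +KTS KO. Lef1 fell by 1.53 in XX -KTS KO and rose by 1.62 in XY +KTS KO, where Axin2, a feedback gene of WNT signalling, rose by 2.32. Mmp2, a matrix protease, was higher in XY WT than in XX WT (2.33) and fell by 1.74 in XY -KTS KO, and it rose by 1.69 in XX +KTS KO. Axin2 and Lef1 were lower in XY WT than in XX WT (-2.28 and -2.08), and Axin2 rose by 1.17 in XY -KTS KO. Adjusted p-values of these calls ran from 0.000337 to 0.0308 (edgeR). Wif1 did not pass between XY WT and XX WT. Mesonephric duct or tubule-like cells were 68 in XY +KTS KO, 4 in XX +KTS KO and 0 in the other groups, and they are not in the somatic sums.

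The genes most like Amh over the 12 libraries were sought by Pearson's r of log2(CPM + 1) among 6843 genes, as a description. Dhh came first (r = 0.99), followed by Mef2c and Trim47 (0.96 each), Siglece and Myl4 (0.95 each). Dhh had group means of 57.7 CPM in XY WT, 5.28 and 6.31 in XX and XY +KTS KO and at most 0.395 in the others. Trim47 lay at 69.8 in XY WT and at 26.7 and 18.8 in XX and XY +KTS KO, against 3.01 in XX WT. Siglece had the steps of Dhh, with 27.1 in XY WT, 2.64 and 2.82 in +KTS KO and 0.173 in XX WT. For Amhr2 the 5 were Ptgr2, Asl, Ctps2, Zmpste24 and Cryl1 (0.97 to 0.98), of which Cryl1 ranged from 20.6 to 79.9 CPM. Over 21 clusters of WT cells, Bricd5, Dhh, Kazald1, Col9a3 and Dtna were most like Amh (0.91 to 0.95), and Gata4, Gm49708, Wt1, Smarca1 and Sdsl most like Amhr2 (0.97 to 0.98). Libraries and clusters share cells and depth, and no p is given.

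The neighbours of Amh behaved apart from each other. Sf3a2, a splicing factor gene upstream, stayed between 45.3 and 59.9 CPM in the 12 libraries. Jsrp1, downstream and on the other strand, lay at 16.9 and 15.2 CPM in XX WT, 39.8 and 28.8 in XY WT, 9.75 to 10.95 in the 4 -KTS KO libraries, and, without +KTS, 54.9 and 40.5 for XX and 29.9 and 51.3 for XY. Its 4 +KTS KO libraries were thus above the lower XY WT library, unlike those of Amh. Beside Amhr2, Sp1 lay between 13.7 and 22.9 CPM, and Prr13 between 40.7 and 57.4 in -KTS KO and between 49.4 and 76.1 in the other libraries.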

How the data were processed

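Single-cell RNA-seq libraries (10x, 3' end) were made from the gonads of 12 samples. The authors deposited raw UMI counts per gene and cell barcode from Cell Ranger 6.0 on mm10 (the submitters' processing notes). Their counts were not normalized, and the methods and the labels name different kit versions. Barcodes with under 1000 genes or over 10% mitochondrial UMIs were dropped, which left 83513 of 103730. Doublets were taken as the barcodes with the highest Scrublet scores (0.8% per 1000 barcodes, 5968 removed), since Scrublet itself called at most 3 in 4 libraries. Scrublet was run in scanpy 1.11.5. Counts were normalised with sctransform 0.4.2 and clustered with Seurat 5.3.0 on 3000 variable genes, 50 components, 20 neighbours and resolution 0.8, without Amh and Amhr2.

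Clusters were named "-like" from marker lists (Sertoli, pre-granulosa, pre-supporting, coelomic epithelium, interstitial, matrix-rich mesenchyme, fetal Leydig, germ, endothelial, erythrocyte, immune, perivascular, mesonephric), with at least 3 markers. No cluster was named fetal Leydig-like or perivascular-like. The thresholds for names were set after clusters had been looked at, so rebuilt names can differ from the study's. Germ-like, endothelial-like, erythrocyte-like, immune-like and mesonephric clusters were left out of the somatic sums (56393823 to 98330569 UMIs a library), in which 99.3% of the Amh and 99.1% of the Amhr2 UMIs of kept cells lay.

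Somatic counts were summed per library and tested with edgeR 4.0.16 (quasi-likelihood, TMM, filterByExpr, Benjamini-Hochberg, threshold 0.05, R 4.3.3) over all 12 libraries. Standard errors are approximate, from the fold change and its F statistic. DESeq2 1.42.0 was an alternative. Scripts were tested on simulated data. Shares of cells were compared after thinning to 5000 UMIs (5084 shallower cells left out) by exact permutation tests over libraries (scipy 1.17.1). The cells left out were 1596 of 6458 in XY +KTS KO replicate 1 and 950 of 4120 in XX -KTS KO replicate 2. In each other library they were 170 to 401, so the shares of those 2 libraries rest more on their deeper cells. Intervals are 95% exact binomial, and a count of 0 allows 3 counts. Alternatives were other scalings, filters, cells, depths, a replicate block and leaving out each library. Leaving out libraries in the share tests was added after seeing the data.

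The members, the lists and the tests were chosen with earlier results of these data known. Named pathway genes are the 2 with the largest change past the threshold per list and comparison. Acvr1, Smad7, Nr5a1, Nr0b1, Sox8, Axin2 and Lef1 were also named, where outside that rule, after their values were seen. So were the non-significant Sox9, Gata4, Wt1, Nr0b1 and Dmrt1 in XX +KTS KO. Likeness used genes of at least 20 CPM at their highest. Promoter sequence was in the RefSeq table for 1 of the 2 genes.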

Additional observations from a re-analysis of the deposited data

Results flagged for a closer look

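The effect of each mutant genotype on Amh differed between the sexes in a test of the difference itself. For -KTS loss, XY minus XX was -9.20 on the log2 scale (adjusted p = 0.00896, edgeR), and for +KTS loss it was -8.13 (adjusted p = 0.00281, edgeR). Both comparisons use the same WT libraries. Each value is the sex difference in the mutant (-0.56 and 0.51) less that in WT (8.64). Amh in XX WT was near 0 (0.333 CPM) and could hardly fall, so the value for -KTS loss mainly restates the sex difference of WT. Groups of 2 libraries allow no check for a single library far from its group.

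Amh UMIs were also found in germ-like cells, which lie outside the somatic sums and enter the comparisons only in the alternative with all kept cells. XY WT held 2.02 and 1.03 CPM there, with a UMI in 3.74% of 1015 and 1.54% of 1039 cells, above the 0 and 0.0584 CPM of XX WT. Endothelial-like cells of the same XY WT libraries had 0.469 and 1.93 CPM. The part of free RNA or of undetected doublets in these values was not tested.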

How the results depend on the processing

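Across the alternatives, 281 values of Amh and Amhr2 kept the direction and the side of the threshold, 6 lost a call, 4 gained one and 9 changed sign. The 281 include results that were not called as reported and stayed so. They thus do not measure how stable the calls were. Leaving out 1 library gave log2 values of 4.41 to 5.88 for Amh in XX +KTS KO, -3.51 to -1.87 in XY +KTS KO, -0.19 to 1.41 for XY against XX +KTS KO, and -9.77 to -8.24 for the -KTS interaction. It gave -0.81 to -0.59 for Amhr2 in XY -KTS KO and -0.10 to 0.11 in XY +KTS KO. Over all kept cells, Amhr2 in XY -KTS KO was -0.51. Amhr2 in XY +KTS KO turned to -0.039 with DESeq2, -0.040 with RLE factors and -0.026 with at least 2000 genes a cell. With DESeq2 and with doublets kept, Amhr2 in XY against XX WT was -0.46 and -0.55, and its -KTS interaction 0.76 and 0.86, all past the threshold. In the share of cells for +KTS KO against WT, Amhr2 turned to 1.57 points over all kept cells, and leaving out 1 library gave -6.72 to 0.508 points for Amh. The cause of these changes was not tested. With the replicate number as a block, Amh in XX +KTS KO was 5.09 (adjusted p = 0.00168, edgeR), and the block changed no call of either gene. The numbers did not pair the samples over all groups, as correlations of deviations ran from -0.427 to 0.512. Among XX WT, XY WT and XY -KTS KO they were 0.25, 0.512 and 0.452, and XY +KTS KO gave -0.427, -0.334 and -0.358 with these groups. Over the alternatives, the genes called ranged from 151 to 1493 (883 as reported) in XX +KTS KO, 93 to 1348 (538) and 175 to 1551 (702) in the -KTS and +KTS interactions, 1169 to 3498 (2918) in XX -KTS KO, 2143 to 4757 (4171) in XY -KTS KO, 719 to 3193 (2249) in XY +KTS KO, 812 to 2981 (2425) in XY against XX WT, 5 to 20 (6) between the -KTS KO sexes and 6 to 130 (6) between the +KTS KO sexes. With 2 libraries a group and under 40 Amh UMIs in each XX WT and -KTS KO library, small differences of Amh among those groups could not be detected.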
